A study of Mus musculus with 22 samples.

Results

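NIH3T3 cells, an established line of mouse embryo fibroblasts, were transduced with a lentivirus that carried Denr shRNA1, a short hairpin RNA against Denr, or a scramble shRNA. The 2 kinds of cells were compared by ribosome profiling (RPF-seq, the sequencing of ribosome-protected mRNA fragments) and by RNA-seq. The comparison used 12 of the 22 libraries of the series, which were made in pairs, footprints and RNA, from 6 lysates (3 with Denr shRNA1 and 3 with scramble shRNA), chosen by their labels. The other 10 libraries came from cells with a second hairpin against Denr (Denr shRNA2, 3 lysates) or with a hairpin against Gfp (2 lysates), and they entered the tests for the estimate of the spread and as side-by-side values. Both groups carried a pLKO.1puro vector, were selected with puromycin as transduced pools and not as single clones, were grown in DMEM with 10% serum, and received cycloheximide at 100 µg/ml for 2 min before lysis. Each replicate was 1 dish. Nothing in the labels says that dishes came from separate transductions, so p-values measure the spread between these lysates.

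DENR forms a complex with MCTS1 that binds the small ribosomal subunit, removes the deacylated tRNA left after termination and promotes reinitiation after short upstream open reading frames (uORFs). A uORF is a reading frame in the 5′ UTR of an mRNA, and a ribosome that has translated it must resume scanning and initiate again to reach the coding sequence (CDS). Translation efficiency (TE) was taken as CDS footprints over CDS RNA in the same lysate, and relative 5′ UTR translation as footprints on the 5′ UTR over footprints on the CDS. A hairpin is processed to a guide strand that pairs with its target, and bases 2 to 8 of a guide, its seed, can also pair with 3′ UTRs of other mRNAs.

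The 2 Denr target sites are shown because both hairpins act on the same mRNA at different places and carry different seeds. Capitals mark the 7 bases complementary to the seed, with the guide taken to start at the first base of the antisense strand. The Denr shRNA1 site lay in the CDS part of exon 6 (GRCm38, chr5:123924766-123924786, plus strand), and the Denr shRNA2 site lay in the CDS part of exon 2 (chr5:123908167-123908187, plus strand).

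Denr shRNA1 site: gtaccacagaaggTCACGATa

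Denr shRNA2 site: gtgccaagttagaTGCGGATt

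The table of the study held 10516 genes, and expression was given in RPKM (reads normalised to the length of the region and to the size of the library). The 12 libraries held 12211422 to 21649893 RPF-seq reads and 8514322 to 19646913 RNA-seq reads on CDSs and 5′ UTRs. All 14 fibroblast markers looked for were in the table. Of 30 markers of other cell types only Cdh1, Krt14, Cdh5 and Des were in it, with a summed RNA level of 14.4 to 16.0 RPKM with Denr shRNA1 and of 17.7 to 21.8 RPKM with scramble, against 24300 to 33300 and 22400 to 26300 RPKM for the fibroblast markers. Krt14, a keratin of epithelia, fell by 0.54 in RNA and by 0.80 in footprints, while its RNA change against Gfp had the other sign. The part of other cells in the results was not tested. The first Denr shRNA1 RNA-seq library stood apart from the other 2: across genes its R² with them was 0.97 and 0.956 on the log2 scale, against 0.99 between those 2. The R² values of the 3 Denr shRNA1 RPF-seq libraries were 0.99 to 0.992. The third scramble lysate stood apart as well. Its R² with the other 2 scramble lysates was 0.976 and 0.982 in RNA-seq, against 0.994 between those 2. In RPF-seq it was 0.981 and 0.986, against 0.991. Its RNA-seq library held the fewest reads, at 8514322.

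Denr mRNA and Denr footprints both fell strongly relative to scramble cells. Denr (chr5:123907175-123928835, plus strand) had an RNA level of 44.0, 43.2 and 34.4 RPKM in the 3 Denr shRNA1 lysates and of 190, 185 and 189 RPKM in the scramble lysates. Its footprints stood at 43.2, 30.9 and 27.1 RPKM against 173, 179 and 152 RPKM. The groups did not overlap in either measure (8.26% of all genes were lower without overlap in RNA and 16.3% in footprints, and 17.3% and 18.0% higher), and the residual was 21.5% of the scramble level in RNA (log2 change -2.22, SE 0.12, adjusted p = 4.59e-06) and 19.8% in footprints (-2.34, SE 0.16, adjusted p = 5.36e-06; limma with Benjamini-Hochberg adjustment here and below). TE of Denr was lower by 0.12 on the log2 scale, which did not pass the threshold of a false discovery rate of 0.1. Against Gfp shRNA the RNA change was -2.07. Denr shRNA2 gave changes of -3.40 in RNA and -3.84 in footprints, so that Denr shRNA1 cells kept more Denr than Denr shRNA2 cells by 1.18 in RNA (adjusted p = 0.00197) and by 1.5 in footprints (adjusted p = 0.00021).

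Among 9 measured genes for DENR, its partner and the related recycling factors, 1 fell in RNA and 4 fell in footprints. Denr itself, the target of the hairpin, was the 1 in RNA and was among the 4 in footprints. The background rates over all 10516 genes were 3.12% lower in RNA and 12.3% lower in footprints. Eif2d, which encodes a single protein with domains like those of MCTS1 and DENR, had footprints of 27.5, 27.0 and 26.5 RPKM against 32.6, 31.0 and 34.5 RPKM in scramble cells. They fell by 0.27 (SE 0.07, adjusted p = 0.0198), and Eif2d RNA differed by -0.07 (adjusted p = 0.732). Abce1, which encodes the ribosome recycling ATPase, fell in footprints by 0.30 and Gspt1, which encodes the release factor eRF3a, by 0.20. Against Gfp, 1 of the 9 fell in footprints (3.52% of all genes), which was Denr, and the change of Abce1 had the other sign. Against scramble, the count in footprints was 2 without Denr shRNA1 lysate 2 or scramble lysate 3. Mcts1 passed in neither measure, with a log2 change of -0.45 in RNA (adjusted p = 0.271) and of 0.04 in footprints.

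Over the whole table, RNA of 1096 genes (10.4%) passed the threshold, 768 higher (7.30%) and 328 lower, and footprints of 2769 genes (26.3%) passed it, 1477 higher (14.0%) and 1292 lower. With the replicate number as a block, which pairs the RPF-seq libraries, 3931 genes passed in footprints. The median change over all genes was 0.044 in RNA, 0.017 in footprints and -0.02 in TE on the log2 scale. Relative to each gene's mean over the lysates, the first Denr shRNA1 lysate had a median of 0.105 in RNA and -0.103 in TE. The other Denr shRNA1 lysates were both at 0.009 in RNA, and at 0.009 and -0.008 in TE. With libraries centred on their median, 581 genes were higher and 344 lower in RNA. Without that first lysate the counts were 415 and 292. In bulk lysates a smaller number of cells that express a gene and less RNA per cell cannot be told apart.

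The genes with the largest decreases were Slurp1, Denr, the placental prolactin-family genes Prl2c5, Prl2c3 and Prl2c2, Cyp3a13 and Cxcl1. Slurp1 (chr15:74724318-74728034, minus strand) encodes a small secreted protein of the Ly6 family. Its RNA level was 16.9, 20.9 and 24.7 RPKM with Denr shRNA1 and 154, 131 and 101 RPKM with scramble, a change of -2.61 (SE 0.19, adjusted p = 6.37e-05). Its footprints, at 29.3, 37.7 and 27.0 RPKM against 261, 191 and 165 RPKM, changed by -2.70 (SE 0.18). Every scramble lysate was above every Denr shRNA1 lysate, and the Gfp lysates lay between them in both measures, at 83.5 and 55.7 RPKM in RNA. Prl2c3 encodes a proliferin, a growth-associated hormone of the prolactin family, and its RNA level was 4.8, 5.72 and 5.27 RPKM against 20.6, 22.9 and 24.3 RPKM (-2.08, SE 0.11, adjusted p = 4.59e-06). Prl2c2 and Prl2c5 are near-identical to Prl2c3, so reads may have been split among them, and Prl2c5 had as few as 2 reads in a library. Cxcl1, a neutrophil-attracting chemokine, fell in footprints by 2.21 from 11.1, 11.5 and 14.0 RPKM to 0.997, 5.06 and 3.16 RPKM, with as few as 4 reads in a library.

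The genes with the largest increases encode secreted or matrix proteins with the exception of Il33, a nuclear cytokine of the interleukin-1 family, and Capn6, a calpain family member. Il33 (chr19:29925114-29960718, plus strand) had an RNA level of 6.74, 9.91 and 6.21 RPKM with Denr shRNA1 and of 0.433, 0.681 and 1.4 RPKM with scramble (3.15, SE 0.32, adjusted p = 0.000605). Its footprints stood at 13.1, 14.5 and 12 RPKM against 0.889, 1.09 and 1.17 RPKM (3.54, SE 0.12, adjusted p = 1.45e-08), the smallest adjusted p in the footprint test. The groups did not overlap in either measure, and as few as 6 reads lay behind the lowest RNA value. Ccl8, a monocyte-attracting chemokine, had an RNA level of 36.2, 27.7 and 26.4 RPKM against 6.13, 5.84 and 5.53 RPKM (2.34, SE 0.14, adjusted p = 1.19e-05). Dpt, which encodes the matrix protein dermatopontin, stood at 17.6, 24.1 and 18.2 RPKM against 4.30, 5.41 and 5.13 RPKM (1.98, SE 0.22). RNA also rose for Aspn, which encodes the matrix proteoglycan asporin (2.54), and for Capn6 (2.09), and footprints rose for Apod, which encodes the lipid carrier apolipoprotein D (2.2).

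The Gfp shRNA lysates lay nearer to the Denr shRNA1 lysates for several of the increases than for the decreases. Il33 RNA was at 3.90 and 5.61 RPKM with Gfp shRNA, and the change of Denr shRNA1 against Gfp was 0.66 (adjusted p = 0.753). Capn6 differed from Gfp by 0.22 (adjusted p = 0.96), Dpt by 0.50 (adjusted p = 0.656) and Ccl8 by 0.80, which passed the threshold (adjusted p = 0.0602). Slurp1 differed from Gfp by -1.72 (adjusted p = 0.00657), Prl2c3 by -1.24 (adjusted p = 0.0016) and Cyp3a13, a cytochrome P450, by -1.61 (adjusted p = 0.0337). Against Gfp, 107 genes passed in RNA (1.02%, 44 higher and 63 lower) and 528 in footprints (5.02%, 158 higher and 370 lower), with 2 Gfp lysates in place of 3 scramble lysates. The 2 controls were themselves apart, with 74 genes in RNA (0.704%) and 892 in footprints (8.48%) that passed between Gfp and scramble.

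**Figure D1:**
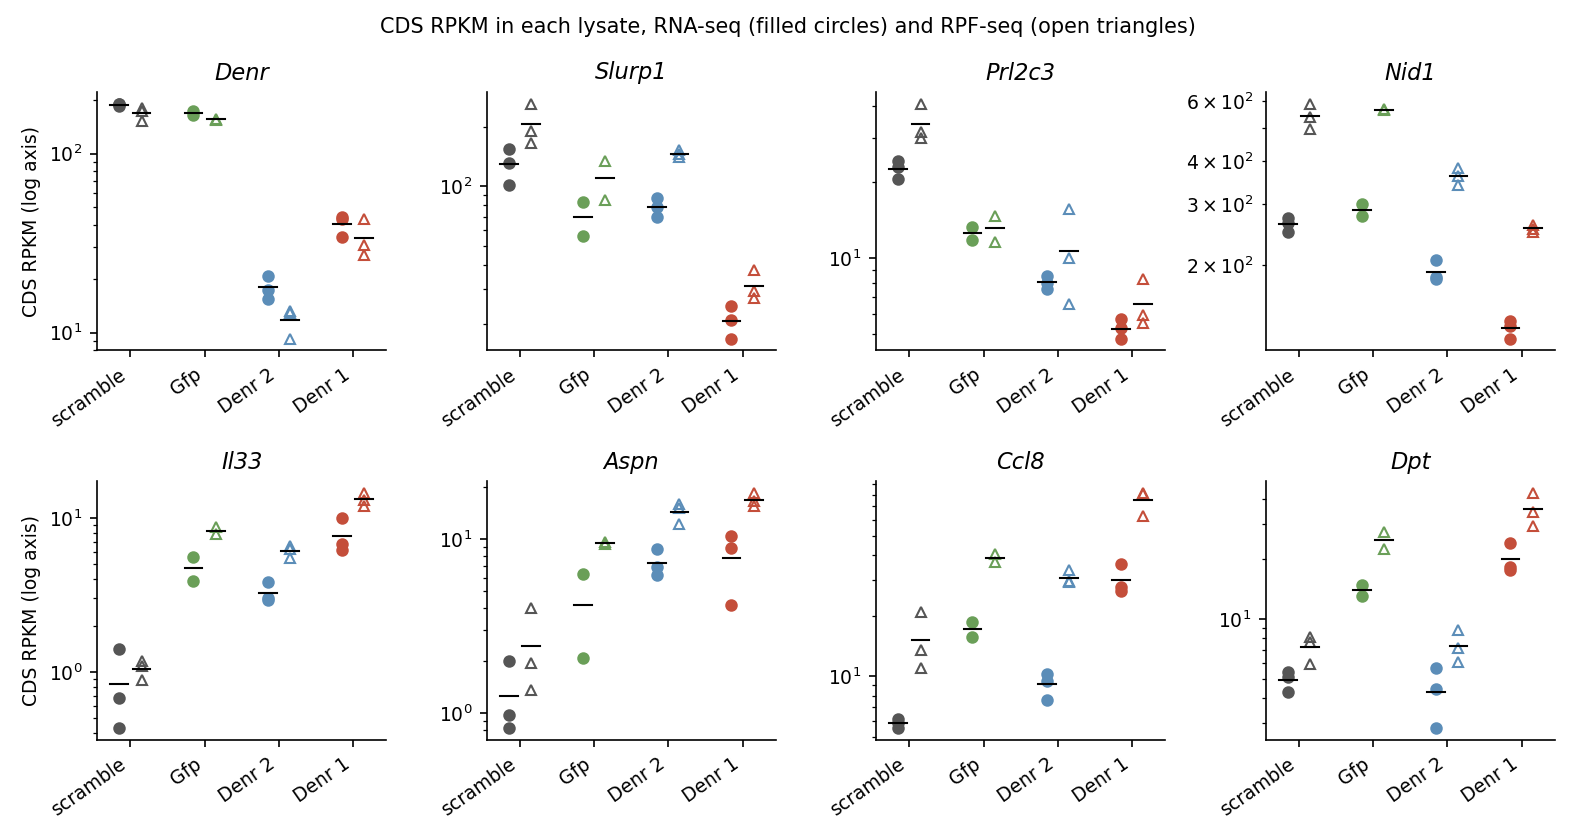
RNA-seq and RPF-seq level on the CDS (RPKM, log axis) of 8 named genes in each lysate of the 4 shRNAs, 1 point per lysate. Denr is low with both Denr hairpins, Slurp1 is low with Denr shRNA1, and Il33 is at 3.90 and 5.61 RPKM in RNA with Gfp shRNA, closer to the Denr shRNA1 lysates than to the scramble lysates.

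Genes for cholesterol and fatty acid synthesis were higher as a group. Of 36 measured members, 22 rose in RNA and none fell, and 25 rose in footprints while Me1, which encodes malic enzyme, fell by 0.19. These counts stand against background rates of 7.30% and 14.0% higher. The median change was 0.350 in RNA and 0.378 in footprints, against 0.044 and 0.017 for all genes. Fdps, which encodes farnesyl diphosphate synthase, rose by 0.88 in RNA (240, 169 and 185 RPKM against 101, 110 and 108 RPKM, SE 0.12, adjusted p = 0.00286) and by 0.79 in footprints. Dhcr7, the last enzyme of cholesterol synthesis, rose by 0.68 in RNA and 0.63 in footprints, and Hmgcs1, the synthase upstream of the rate-limiting reductase, by 0.49 and 0.52. The same genes had a median of 0.225 in RNA and 0.274 in footprints in Gfp against scramble cells, and of 0.357 and 0.409 in Denr shRNA2 against scramble cells, contrasts that share the scramble lysates. Measured against Gfp, 0 of the 36 passed in RNA by limma (863 genes of the table had an unadjusted p below 0.05) and 4 in footprints. In RNA 14 of the 36 rose without Denr shRNA1 lysate 2, 12 without scramble lysate 1 or 2, and 11 with only the 6 lysates compared in the fit.

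**Figure D2:**
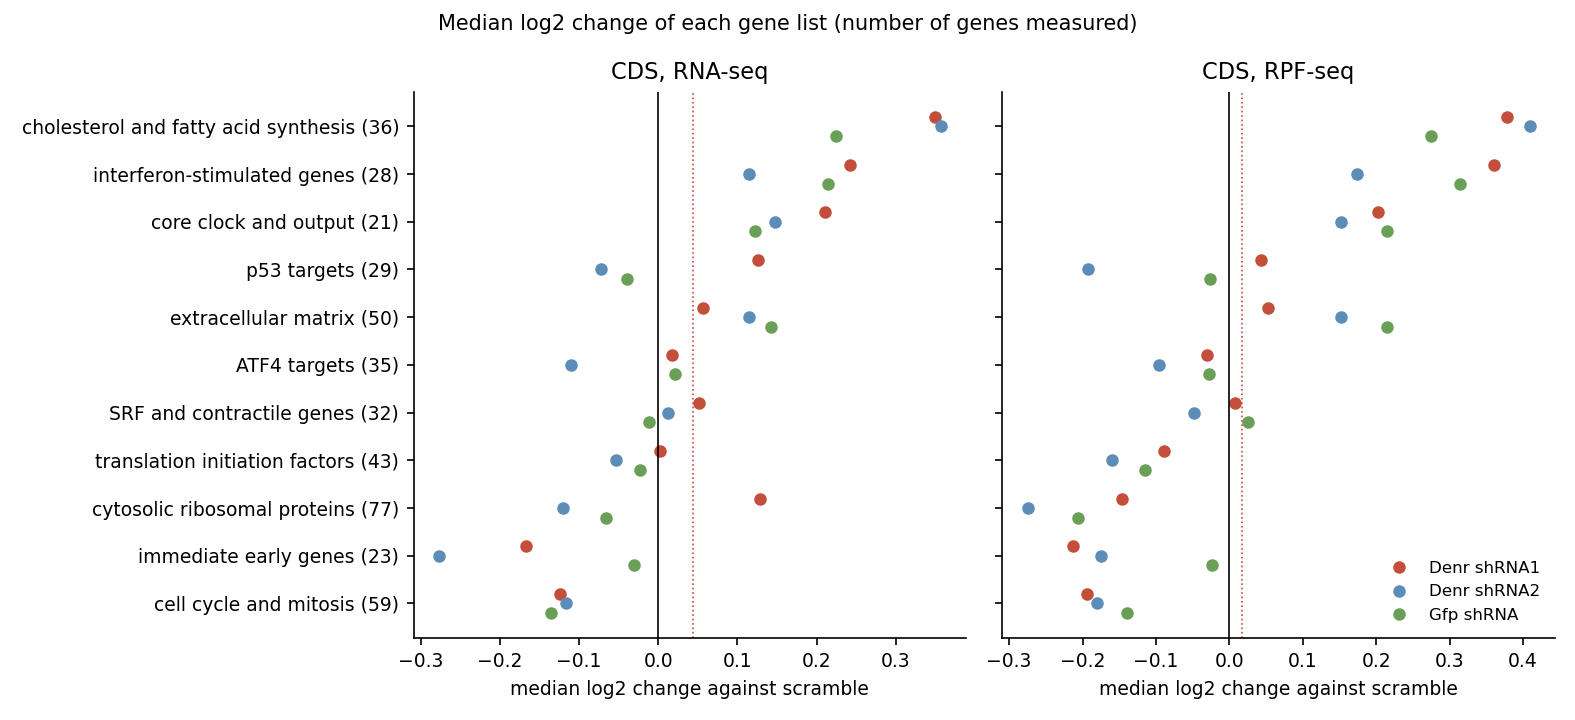
Median log2 change of each gene list in RNA-seq and RPF-seq (x axis) for Denr shRNA1, Denr shRNA2 and Gfp shRNA, each against scramble, with the number of measured genes beside each list and a line at no change. Cholesterol and fatty acid synthesis lies at 0.350 and 0.378 for Denr shRNA1, and the Gfp points lie on the same side at 0.225 and 0.274.

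Of 28 measured interferon-stimulated genes, which cells switch on in response to interferon and viral RNA, 6 rose in RNA and none fell, and 15 rose and 1 fell in footprints. Over all genes 7.30% rose in RNA, and 14.0% rose and 12.3% fell in footprints. The median change of the list was 0.242 in RNA and 0.361 in footprints. Bst2, which encodes the antiviral membrane protein tetherin, rose in RNA by 1.05 (7.51, 5.98 and 6.86 RPKM against 3.46, 3.95 and 2.40 RPKM) and had a footprint change of 0.38 (adjusted p = 0.247). Isg15, the ubiquitin-like modifier, was at 15.3, 8.86 and 8.06 RPKM in RNA against 5.6, 6.47 and 6.92 RPKM (0.70, adjusted p = 0.0729), so that the first Denr shRNA1 lysate was the highest. Tapbp, a chaperone of peptide loading, rose by 0.68 in RNA and 0.76 in footprints. Gfp against scramble gave medians of 0.214 and 0.314 for this list, and against Gfp 0 of its members rose by limma and 1 fell in footprints. Without the first Denr shRNA1 lysate 7 members rose in footprints, 3 rose in RNA without scramble lysate 1 or 2, and with only the 6 lysates compared 2 rose in RNA and 9 in footprints.

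The interferon-stimulated response element was searched for in promoters. A promoter was taken as the 250 bases before to 50 bases after the start of a gene (RefSeq, GRCm38.p6), and the letters GAAA, any 2 bases and GAAA were sought on both strands. They were present in 10 of 23 list members with a promoter (43.5%) and in 294 of 8357 genes of the table with one (3.52%). The list was drawn up from genes known to respond to interferon, so this excess was set by that choice and is no result of these samples. Whether members that rose held the letters more often than the others was not tested. A match describes letters and not a bound factor. The 3 matches shown were picked after their values were seen, because their genes rose in RNA, and capitals mark the motif. Overlapping matches also occur in Isg15 and Bst2. They lie at chr4:156200873-156200898 (Isg15), chr10:128270268-128270293 (Stat2) and chr8:71537579-71537604 (Bst2), all on the minus strand.

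Isg15: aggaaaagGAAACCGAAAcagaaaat

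Stat2: agggaaagGAAACTGAAAccagggtg

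Bst2: aggaaaatGAAACTGAAAggctgcag

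Stat2, a subunit of the factor that binds this element, rose by 0.50 in RNA (4.97, 4.77 and 4.76 RPKM against 2.79, 3.41 and 4.07 RPKM) and by 0.59 in footprints. Cxcl10, a chemokine whose promoter held the same letters, had changes of -0.42 in RNA (adjusted p = 0.616) and -0.59 in footprints (adjusted p = 0.203), so that a match did not go with an increase in every gene.

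Genes of the extracellular matrix moved in both directions. Of 50 measured members, 12 rose and 3 fell in RNA, and 21 rose and 11 fell in footprints, with medians of 0.057 and 0.052. Over all genes 7.30% rose and 3.12% fell in RNA, and 14.0% rose and 12.3% fell in footprints. With only the 6 lysates compared in the fit, 7 rose in RNA. Nid1, which encodes the basement membrane linker nidogen-1, had an RNA level of 133, 137 and 122 RPKM against 274, 265 and 249 RPKM (-1.01, SE 0.09, adjusted p = 0.000185) and footprints of 262, 255 and 249 RPKM against 589, 498 and 539 RPKM (-1.08, SE 0.07). Ecm1, a secreted glycoprotein, stood at 15.3, 20.7 and 18.8 RPKM in RNA against 47.4, 42.6 and 40.4 RPKM (-1.26), and its footprints fell by 1.35. Mgp, which encodes the calcification inhibitor matrix Gla protein, was at 37.9, 29.3 and 32.0 RPKM against 11.8, 9.15 and 17.1 RPKM in RNA (1.42), and its footprints rose by 1.44. Groups did not overlap for these 3 genes, and all 3 also passed against Gfp in RNA, by -1.14 for Nid1, -1.04 for Ecm1 and 1.19 for Mgp. Col11a1, a minor fibrillar collagen, rose by 1.35 in footprints and by 0.83 against Gfp. Col3a1, a major fibrillar collagen, rose by 0.82 in RNA and 0.94 in footprints but differed from Gfp by -0.02 and -0.05, and the 2 controls differed in it by 0.84 and 0.99.

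Among 32 contractile genes, most of them targets of the factor SRF, 2 rose and 2 fell in RNA, and 5 rose and 8 fell in footprints. The background was 7.30% higher and 3.12% lower in RNA and 14.0% higher and 12.3% lower in footprints, so that the counts of higher genes were near it. The 2 lower genes in RNA were 0 without Denr shRNA1 lysate 2 or scramble lysate 1 or 2, and the 2 higher ones were 1 without Denr shRNA1 lysate 1 or 2 or scramble lysate 2 or 3. Flna and Flnc, which encode actin crosslinkers, both fell in footprints by 0.52, and Myh9, the heavy chain of non-muscle myosin IIA, by 0.42. The smooth muscle genes Actg2, Myl9 and Mylk rose in footprints, by 0.54, 0.55 and 0.67. Mylk differed from Gfp by -0.14 in footprints, and the count of higher genes in footprints was 3, 2 and 3 without Denr shRNA1 lysate 1, Denr shRNA1 lysate 2 and scramble lysate 3. Actg2 differed from Gfp by 1.09 in footprints (adjusted p = 0.00171).

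Of 59 measured cell cycle and mitosis genes, 10 fell and none rose in RNA (median -0.124), and 29 fell in footprints (median -0.194) whereas E2f1, which encodes a factor of S phase entry, rose by 0.35. Over all genes 3.12% fell in RNA and 12.3% in footprints. The count of higher genes in footprints was 4 with the replicate block, 2 without Denr shRNA1 lysate 1 and 4 without scramble lysate 1. Ccnb1, the mitotic cyclin B1, had footprints of 255, 252 and 264 RPKM against 332, 343 and 337 RPKM (-0.39, SE 0.06, adjusted p = 0.000774). The larger decreases in footprints were those of Ccnb2, the second B-type cyclin (-0.68), of Anln, a scaffold of the cytokinetic ring (-0.63), and of the kinetochore genes Cenpe and Cenpf (both -0.54). The median of this list was -0.139 in footprints in Gfp against scramble cells, in which 12 members fell (3.10% of all genes), and against Gfp 3 members fell with Denr shRNA1. In RNA the count rested on single lysates and on the other groups in the fit: it was 0 without Denr shRNA1 lysate 2, 4, 1 and 3 without scramble lysate 1, 2 and 3, and 0 with only the 6 lysates compared.

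Immediate early genes, which respond within minutes to growth factors, had 5 of 23 members lower and none higher in RNA, and 6 lower and none higher in footprints, against a background of 3.12% lower in RNA and 12.3% lower in footprints. In footprints 2 were higher with the replicate block, 2 without Denr shRNA1 lysate 1, and 1 without scramble lysate 2 or 3. Klf4, a zinc finger factor, fell by 0.58 in RNA and 0.57 in footprints, and Dusp1, a phosphatase of MAP kinases, by 0.50 in footprints. Without scramble lysate 1 or 2 the count in RNA was 2 or 1. Egr1 varied among replicates more than between groups, with footprints of 3.77, 47.6 and 4.98 RPKM against 17.7, 22.2 and 5.92 RPKM (-0.45, adjusted p = 0.762). Among 29 p53 targets, 2 rose and 1 fell in RNA, close to the 7.30% and 3.12% of all genes, and 9 rose and 1 fell in footprints (3 fell with the replicate block or without scramble lysate 3), against 14.0% and 12.3% of all genes. Gadd45a, a growth arrest and stress gene, rose from 26.9, 27.5 and 24.0 RPKM to 59.9, 67.0 and 59.0 RPKM in RNA (1.24, SE 0.11, adjusted p = 0.000185) and by 1.19 in footprints, and it stayed higher than in Gfp cells by 0.64 (adjusted p = 0.0457). Cdkn1a, which encodes the cell cycle inhibitor p21, did not pass in RNA (0.31, adjusted p = 0.399) or footprints (0.01).

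The targets of ATF4, a factor whose own mRNA is translated through uORFs under stress, went different ways. Atf4 RNA rose by 0.42, from 1190, 1150 and 1180 RPKM to 1810, 1440 and 1480 RPKM, and its footprints by 0.39, with a TE change of -0.03. Ddit3, which encodes the stress factor CHOP, rose by 0.91 in RNA (183, 144 and 152 RPKM against 76.3, 81.6 and 97.0 RPKM) and by 0.60 in footprints. Of 35 measured targets, 7 rose and none fell in RNA, and 7 rose and 8 fell in footprints, with medians of 0.017 and -0.031. Over all genes 7.30% rose in RNA, and 14.0% rose and 12.3% fell in footprints. Trib3, a pseudokinase that inhibits AKT, rose by 0.92 in RNA and 0.71 in footprints, Ddit4, an inhibitor of mTORC1, by 0.76 and 0.66, and Nupr1, a chromatin-associated stress protein, by 0.61 and 0.48. The 8 genes whose footprints fell, named after their values were seen, were those of the aminoacyl-tRNA synthetases Aars, Iars, Cars and Gars, of serine synthesis Psat1, Psph and Phgdh, and of the arginine transporter Slc7a1, with decreases of 0.17 to 0.32. Aars had footprints of 131, 120 and 103 RPKM against 157, 147 and 136 RPKM. With 1 lysate left out, 6 or 7 targets were higher in footprints and 4 to 7 lower (4 without Denr shRNA1 lysate 2 or 3 or scramble lysate 1, and 5 without scramble lysate 2), and in RNA 4 were higher without Denr shRNA1 lysate 1 or without scramble lysate 2. Against Gfp 2 targets rose and 1 fell in footprints.

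**Figure D3:**
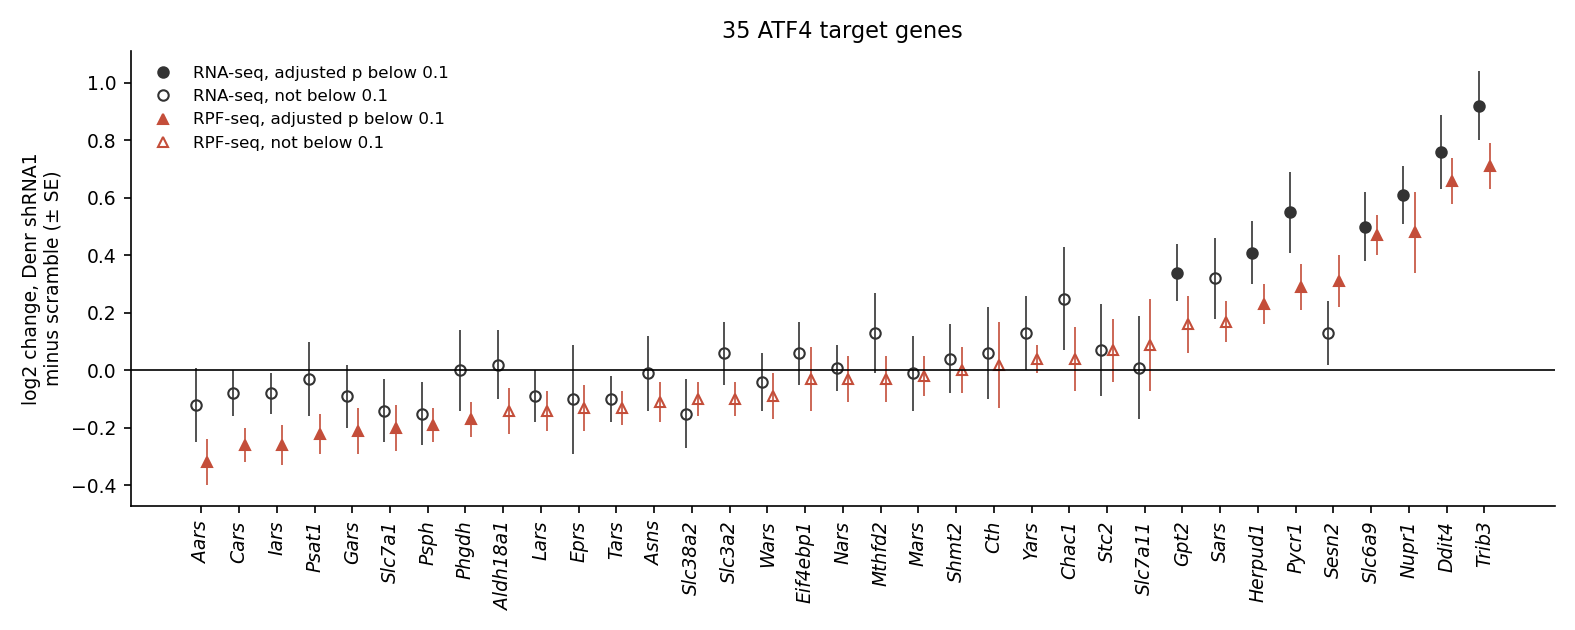
RNA and footprint change (log2, Denr shRNA1 against scramble, with SE) of the measured ATF4 targets, 1 gene per line, with filled points where a change passed the false discovery rate of 0.1. Trib3 and Ddit4 lie highest, and footprints of Aars, Iars and Cars lie lowest among those that passed.

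The amino acid response element was searched for in the same promoters with the letters TGATG, any base and AA, on both strands. It was present in 12 of 28 ATF4 targets with a promoter (42.9%) and in 209 of 8357 genes (2.50%). The list was drawn up from known ATF4 targets, so this excess too was set by that choice and is no result of these samples. Targets that rose and targets whose footprints fell both held it, and examples of each are shown, picked after their values were seen, with the motif in capitals. The windows lie at chr7:126625565-126625588 (Nupr1, plus strand), chr11:120643836-120643859 (Pycr1, minus strand), chr8:94386309-94386332 (Herpud1, minus strand), chr8:111033722-111033745 (Aars, minus strand) and chr6:55037963-55037986 (Gars, minus strand).

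Nupr1: gccctgtcTGATGCAAtctggccc

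Pycr1: cctgtgtaTGATGCAAtgcacaag

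Herpud1: gtgcgggcTGATGCAAcccgccgt

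Aars: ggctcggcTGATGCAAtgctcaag

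Gars: ccggtgcaTGATGAAAtagcgcag

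Pycr1, which encodes an enzyme of proline synthesis, rose by 0.55 in RNA and 0.29 in footprints, and Herpud1, a component of endoplasmic reticulum quality control, by 0.41 and 0.23. Aars and Gars did not pass in RNA, at -0.12 and -0.09, and fell in footprints by 0.32 and 0.21.

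Among 43 initiation factor genes, 2 rose in RNA (0 without scramble lysate 2 or 3 or with only the 6 lysates compared), and 1 rose and 6 fell in footprints, near the 12.3% of all genes that fell, with Pabpc1, the cytoplasmic poly(A) binding protein, lowest at -0.41. With the replicate number as a block, which pairs the RPF-seq libraries, 3 rose and 16 fell, and without Denr shRNA1 lysate 2 only 2 fell. Among 77 cytosolic ribosomal protein genes, 1 rose in RNA, and 14 fell in footprints, also against 12.3% of all genes (25 with the block, 6 without the first Denr shRNA1 lysate, 4 without the second, and 26 and 8 without the first and the second scramble lysate). Gfp against scramble gave a footprint median of -0.206 for the ribosomal protein genes and Denr shRNA1 one of -0.146, and against Gfp none of them passed in footprints by limma (1624 genes of the table had an unadjusted p below 0.05). Their median TE per lysate was -0.298, 0.046 and -0.121 with Denr shRNA1 and 0.131, 0.259 and 0.009 with scramble, relative to the mean of all lysates, so that the groups overlapped.

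Among 21 clock and clock output genes, 4 rose and 1 fell in RNA, and 4 rose (8 with the block) and 2 fell in footprints. Over all genes 7.30% rose and 3.12% fell in RNA, and 14.0% rose and 12.3% fell in footprints. The count of higher genes in RNA was 1 without scramble lysate 1 or 2 and 1 with only the 6 lysates compared, and that in footprints was 2 without Denr shRNA1 lysate 2. Nr1d1, which encodes the repressor REV-ERBα, fell by 0.44 in RNA and 0.48 in footprints. Clock, whose protein is a core activator of the oscillator, had footprints of 8.96, 8.67 and 8.54 RPKM against 11.4, 11.5 and 11.3 RPKM (-0.38, SE 0.11, adjusted p = 0.033) without overlap of the groups. Its RNA was at 15.7, 29.5 and 32.2 RPKM against 28.2, 33.7 and 40.9 RPKM, and its TE was -0.80, -1.76 and -1.90 against -1.30, -1.55 and -1.84, so that in TE the first Denr shRNA1 lysate lay above all others and the other 2 gave a difference of the other sign (-0.27 without the first, 0.08 with it).

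The study's question was which mRNAs lose TE when Denr is low. In Denr shRNA1 cells 1 gene of 10516 passed in TE (0.00951%), Anapc5, which encodes a subunit of the anaphase-promoting complex. Before adjustment, 349 genes were lower (3.32%) and 133 higher (1.26%) at a p below 0.05. With Denr shRNA2 against scramble, 16 of the 10516 genes passed in TE in the same fit, 15 lower and 1 higher. Anapc5 (chr5:122787459-122821339, minus strand) had a log2 TE of -4.03, -3.83 and -4.06 with Denr shRNA1 and of -2.86, -2.80 and -2.76 with scramble, a change of -1.16 (SE 0.14, adjusted p = 0.0594). Its RNA rose by 0.32 (643, 527 and 534 RPKM against 460, 446 and 457 RPKM), its footprints fell by 0.85 (39.4, 37.0 and 32.0 RPKM against 63.5, 64.1 and 67.2 RPKM), and its relative 5′ UTR translation was higher by 1.28 (adjusted p = 0.164). The change in TE against Gfp was -1.19 (adjusted p = 0.0676), and with any of the 6 lysates left out no gene of the table passed against scramble.

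The genes with the next smallest p in TE did not pass. Samd4b, an RNA-binding repressor of translation, had a TE of -1.02, -0.74 and -0.80 against -0.02, -0.03 and -0.15 (-0.79, adjusted p = 0.127), and passed against Gfp (-0.94, adjusted p = 0.0676; 2 genes in all, 0.0190%). Map2k6, a kinase of the p38 pathway, had -0.76, -0.73 and -0.81 against -0.01, -0.06 and 0.14 (-0.79, adjusted p = 0.128). Slc41a1, a magnesium transporter, differed by -0.84 (adjusted p = 0.176), and Samd10 by -1.77 with as few as 3 reads in a library. In all 4 the groups did not overlap. The RNA of Map2k6 rose by 0.80 while its footprints differed by 0.01.

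A list of 12 measured uORF genes held genes that the study's text names, and also Anapc5 and Cdk15, which that text does not name. It lacked Lrrc28, which the study tested in a reporter and whose TE differed by -0.62 here (adjusted p = 0.836). The list was chosen with results of these samples known and is not independent evidence of a direction. The median TE change of the 12 was -0.455 (11 of 12 lower) with Denr shRNA1, -0.614 with Denr shRNA2 and 0.02 with Gfp shRNA, each against scramble. It was -0.02 for all genes with Denr shRNA1, and 55.4% of all genes with a 5′ UTR were lower. Footprints of 5 fell, against 12.3% of all genes: Klhdc8a by 1.11 (4.58, 5.00 and 4.84 RPKM against 10.7, 10.8 and 10.0 RPKM), Anapc5, Vegfd by 0.42, Clock by 0.38 and Etaa1 by 0.38. Relative 5′ UTR translation was higher in all 11 with a covered 5′ UTR, with a median of 0.595, and none of the 11 passed. Over all 5175 covered genes 88.8% were higher, with a median of 0.345, so that 11 of 11 was near that share. Atf5, a stress factor with uORFs, rose by 0.48 in RNA with footprints at -0.01 and a TE difference of -0.48 (adjusted p = 0.731).

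A minimal uORF consists of an AUG followed directly by a stop codon, so that it encodes 1 amino acid (AUG with UAA, UAG or UGA as the next codon). Such an element occurred in the annotated 5′ UTR of 625 of 10205 genes with a 5′ UTR. TE was lower in these genes: the median change was -0.076, against -0.016 in the 4634 genes with other AUGs and -0.019 in the 4946 genes without an AUG. At an unadjusted p below 0.05, 68 of the 625 (10.9%) were lower, against 2.87% of genes with other AUGs, 2.77% of those without and 3.31% of all, and 5 were higher (0.8%). Genes whose 3 Denr shRNA1 lysates all lay below the 3 scramble lysates made up 15.5% of the 625 and 6.17% of those with other AUGs, against 6.51% of all genes. In Denr shRNA2 against scramble 19.0% of the 625 were lower, and in Gfp against scramble 0.64%.

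Per lysate, the median TE of genes with such an element minus that of genes with other AUGs was 0.028, -0.042 and -0.049 with Denr shRNA1 and 0.053, 0.041 and 0.046 with scramble. The means differed by -0.067, and every Denr shRNA1 lysate was below every scramble lysate (2-sided exact permutation p = 0.1, the smallest that 3 against 3 allows). The difference was -0.113 for Denr shRNA2 and 0.014 for Gfp. In the first Denr shRNA1 lysate the medians were -0.057 with an element, -0.086 with other AUGs and -0.126 without an AUG, so that the order of the classes seen in the other 2 lysates was not present there. The classes also differed in the median length of the 5′ UTR, at 380, 268 and 108 bases, and the part of length in the result was not tested. Genes with an element could hold further AUGs as well, and the part of these was not tested either.

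**Figure D4:**
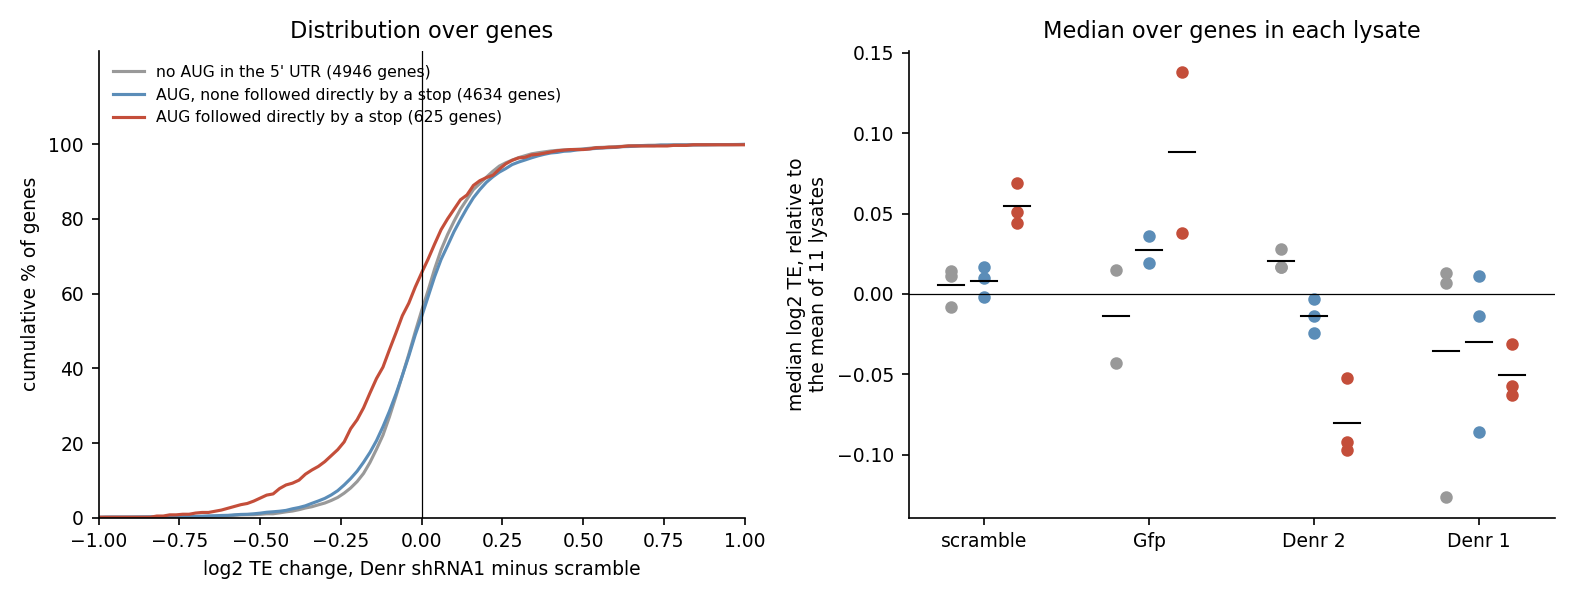
Left, cumulative share of genes (percent) by TE change (log2, Denr shRNA1 against scramble) for genes with an AUG followed directly by a stop in the 5′ UTR (625), with other AUGs (4634) and without an AUG (4946). Right, median TE of each class in each lysate of the 4 shRNAs, where the first class is at -0.057, -0.031 and -0.063 with Denr shRNA1 and at 0.069, 0.051 and 0.044 with scramble.

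The genes with such elements and the smallest p in TE, named after their values were seen, were Samd4b (2 elements), Map2k6, Slc41a1, Rmnd1 (2 elements), Drosha, Ankrd27 and Vegfd (2 elements). More elements did not go with a larger TE change over the class. The median was -0.072 in 71 genes with at least 2 elements (11.3% lower at an unadjusted p below 0.05) and -0.077 in 554 with 1 (10.8% lower). Drosha (chr15:12824815-12935291, plus strand) encodes the nuclease that cuts primary microRNA transcripts in the nucleus. Its TE was -1.09, -0.96 and -1.05 with Denr shRNA1 and -0.41, -0.44 and -0.44 with scramble (-0.60, SE 0.11, adjusted p = 0.187), and the difference was -0.95 with Denr shRNA2. Drosha RNA rose from 35.2, 34.7 and 35.9 RPKM to 52.6, 48.2 and 51.9 RPKM (0.53, adjusted p = 0.0029; 0.50 against Gfp, adjusted p = 0.0241), while its footprints stood at 24.6, 24.8 and 25.1 RPKM against 26.5, 25.5 and 26.4 RPKM (-0.07, adjusted p = 0.553). Of the 12 measured genes of the RNA interference machinery, Ago1 fell in RNA by 0.30, and Xpo5 and Ago2 fell in footprints by 0.23 each while Prkra rose by 0.26 and differed from Gfp by -0.05. Over all genes 3.12% fell in RNA, and 12.3% fell and 14.0% rose in footprints. Rmnd1, a mitochondrial translation protein, had a TE of -1.65, -1.58 and -1.69 against -0.92, -0.78 and -0.94. Vegfd, a lymphatic growth factor, had 0.22, 0.41 and 0.42 against 0.85, 0.74 and 1.05. None of these 7 passed in TE with Denr shRNA1 against scramble. With Denr shRNA2 against scramble each of the 7 passed, with an adjusted p of 0.0027 to 0.0601.

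Genes were also grouped by predicted uORFs of at least 9 bases that start with AUG. The study also counted uORFs with CUG, GUG or UUG starts, which were not predicted here. Genes with no predicted uORF can therefore hold such uORFs, or an AUG followed directly by a stop. The median TE change with Denr shRNA1 was -0.026 in 3435 genes whose uORFs ended within the 5′ UTR, -0.001 in 777 whose uORFs overlapped the CDS, -0.02 in 872 with both kinds and -0.02 in 5121 with neither. With TE again relative to each gene's mean over the lysates, the first kind minus genes with neither was 0.044, -0.015 and -0.026 with Denr shRNA1. With scramble it was 0.032, 0.002 and -0.004, so that the groups overlapped (difference -0.009, exact permutation p = 0.7). Without the first Denr shRNA1 lysate the difference was -0.031 and the groups did not overlap (exact permutation p = 0.2, the smallest that 2 against 3 lysates allow). It was -0.001 and 0.005 without the second and the third Denr shRNA1 lysate and 0.002 without the first scramble lysate.

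Ribosomes on 5′ UTRs were relatively more abundant in Denr shRNA1 cells. Of 5175 genes with a covered 5′ UTR (20 or more footprint reads in 9 or more of the RPF-seq libraries), relative 5′ UTR translation was higher in 4593 (88.8%), with a median change of 0.345. No single gene passed by limma (0 of 5175, 0%), and 1057 had an unadjusted p below 0.05, 1045 higher and 12 lower. The count depends on the model: with the replicate number as a block, not taken as a pairing for this measure, 1251 passed. Of these 1239 were higher and 12 lower. Without scramble lysate 1 or 2, 49 and 11 genes passed. The per-library median, relative to the mean over lysates, was 0.053, 0.286 and 0.232 with Denr shRNA1 and -0.166, 0.008 and -0.296 with scramble. All 3 Denr shRNA1 lysates lay above the 3 scramble lysates, by 0.341 on average (exact permutation p = 0.1), and the Gfp lysates were at -0.445 and 0.053, the second level with the lowest Denr shRNA1 lysate. The same ratio in RNA-seq differed by 0.047 (exact permutation p = 0.8). Footprints on the 5′ UTR were higher in 4467 of these genes (86.3%, median 0.334), and footprints on their CDSs in 47.8% (median -0.013).

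The shift was larger where 5′ UTR translation was low. When the 5175 genes were split into 4 bins of equal size by their ratio in the Gfp lysates, which are not part of the contrast, the median changes from the lowest to the highest bin were 0.475, 0.392, 0.292 and 0.239, with 94.4%, 92.0%, 87.3% and 81.4% of genes higher. On medians per lysate the exact permutation p was 0.1, 0.1, 0.1 and 0.2, so that in the highest bin the groups were not fully apart. Genes without a predicted uORF made up 53.6%, 49.1%, 28.0% and 11.3% of these bins. By class of uORF the median change was 0.462 in 1836 covered genes with no predicted uORF (95.4% higher), 0.285 in 2298 with uORFs within the 5′ UTR, 0.334 in 364 with overlapping uORFs and 0.239 in 580 with both. Ratios were also set relative to each gene's mean over the 11 lysates, so that they show shifts and not levels. Per lysate, genes with uORFs within the 5′ UTR minus genes with no predicted AUG uORF then gave -0.025, -0.15 and -0.153 with Denr shRNA1. With scramble the values were 0.036, 0.105 and 0.08, without overlap (-0.183, exact permutation p = 0.1). In level, the median ratio in scramble cells was -0.5 with uORFs within the 5′ UTR and -1.62 with none.

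**Figure D5:**
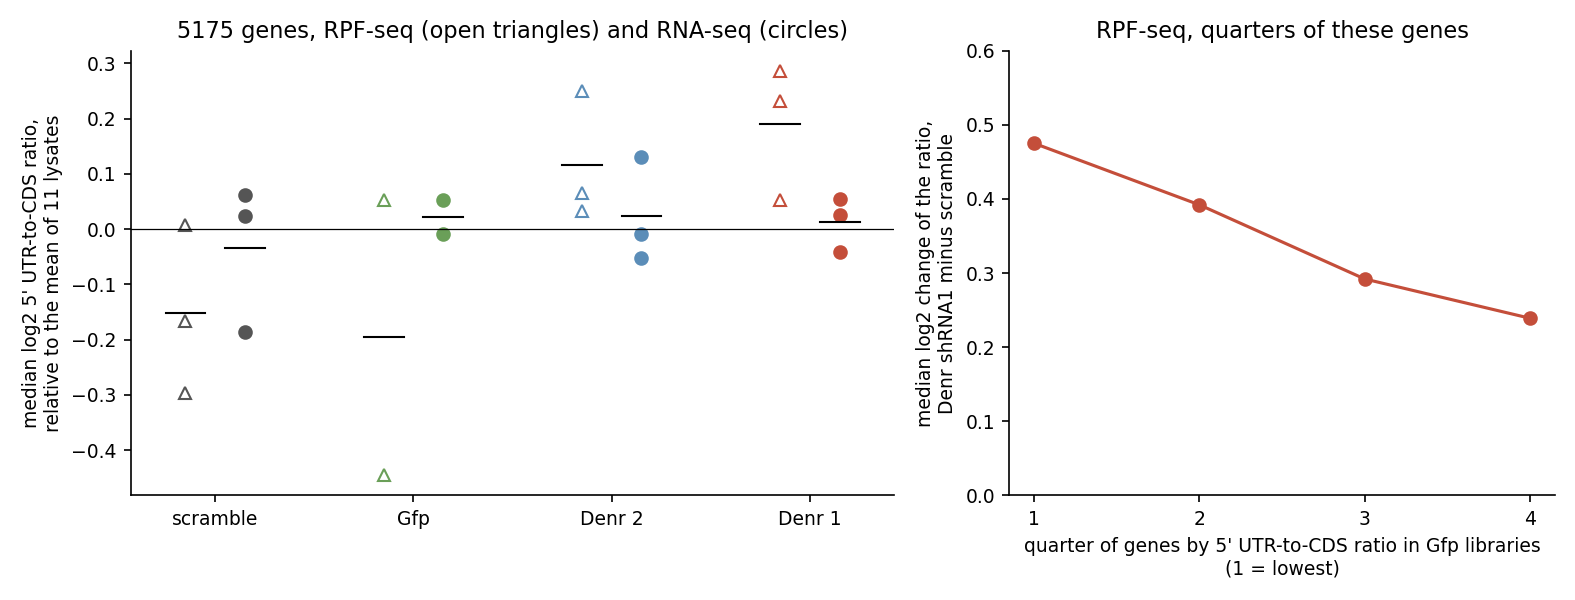
Left, median 5′ UTR to CDS ratio (log2, relative to the mean over lysates) of 5175 genes in each RPF-seq and RNA-seq library of the 4 shRNAs. Right, median change (log2, Denr shRNA1 against scramble) in 4 bins of these genes from low to high ratio in the Gfp lysates, falling from 0.475 to 0.239.

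The 5 genes with the smallest p had an adjusted p of 0.10014, just above the threshold, and none had an AUG in its annotated 5′ UTR. They were Hist1h4j, a histone H4 gene (1.34), Kif23, a kinesin of cytokinesis (1.35), Fscn1, which encodes the actin bundler fascin (1.78), Sprtn, a protease of DNA repair (1.23), and Gigyf2, a translational repressor (1.34). Fscn1 had a log2 ratio of -2.76, -1.88 and -2.40 with Denr shRNA1 and of -4.11, -3.69 and -4.58 with scramble. Gigyf2 had 0.93, 1.47 and 1.41 against -0.49, 0.08 and 0.22. The groups did not overlap in these 5, which follows from how they were chosen. Over the 5175 genes 26.9% were higher without overlap and 0.560% lower.

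Sites for the seed of the Denr shRNA1 guide in 3′ UTRs were examined next, as marks that belong to this hairpin and not to Denr. Of 10307 genes with a 3′ UTR, 152 (1.47%) held the 7 bases TCACGAT. Their median RNA change was -0.046, against 0.045 in genes without a site, and RNA was lower in 55.9% and 42.2%. At the threshold, 6 of the 152 fell in RNA (3.95%, against 3.14% without a site) and 21 in footprints (13.8% against 12.2%). In RNA 4.61% rose, against 7.37% without a site. RNA per lysate was set relative to each gene's mean over the lysates. Genes with a site minus the others then gave -0.138, 0.004 and -0.005 with Denr shRNA1 and -0.026, 0.02 and 0.102 with scramble. The groups overlapped (difference -0.078, exact permutation p = 0.4). The difference was -0.032 without the first Denr shRNA1 lysate and -0.043 without the third scramble lysate. The Denr shRNA2 lysates were at 0.013, 0.045 and 0.061, all above the Denr shRNA1 lysates (difference -0.086, exact permutation p = 0.1). In footprints the difference between the hairpins was -0.026 (exact permutation p = 0.2).

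Among matches that run on from the seed site, the longest outside Denr was in the 3′ UTR of Ice1 on chromosome 13, with 12 bases in a row. Tra2b, Glcci1, Mtg1 and Rgmb followed with 11. Matches to the guide that lack the seed site are not counted here. The Ice1 and Glcci1 sites are shown with the matched bases in capitals, for comparison with the Denr shRNA1 site above.

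Ice1: gcttaccgGAAGGTCACGATc

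Glcci1: atcttctaaAAGGTCACGATc

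Ice1 encodes a subunit of the little elongation complex, which acts in transcription of small nuclear RNAs. Its footprints fell by 0.67 (SE 0.10, adjusted p = 0.000958) and were lower than in Denr shRNA2 cells by 0.73 on the log2 scale (adjusted p = 0.00101), while its RNA differed by -0.47 (adjusted p = 0.104). Glcci1 fell in footprints by 0.47 (adjusted p = 0.0905) and had an RNA change of 0.21. Against Denr shRNA2 its footprints differed by 0.15 (adjusted p = 0.718) and its RNA was higher by 0.49 (adjusted p = 0.0363). Tra2b and Mtg1, whose matches are in the CDS, passed in neither measure, and Rgmb, also matched in the CDS, rose by 0.39 in RNA and 0.34 in footprints.

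Denr shRNA1 and Denr shRNA2 cells differed in 217 genes in RNA (2.06%, 98 higher and 119 lower with Denr shRNA1) and in 1019 genes in footprints (9.69%, 422 higher and 597 lower). Dpt was higher with Denr shRNA1 than with Denr shRNA2 by 2.22 in RNA (adjusted p = 0.00197), and its change against scramble was -0.24 with Denr shRNA2. Slurp1 RNA differed by -1.92 and was lower with Denr shRNA1 (adjusted p = 0.00197), with a change of -0.69 for Denr shRNA2 against scramble. Il33 and Aspn rose with both hairpins in RNA, by 1.97 and 2.52 with Denr shRNA2. In TE 0 genes passed between the hairpins by limma (392 had an unadjusted p below 0.05), and for Anapc5 the difference was 0.42 (adjusted p = 0.972).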

How the data were processed

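The authors trimmed reads with cutadapt, aligned them with Bowtie2 2.2.1 and TopHat2 2.0.11 to the mouse genome (GRCm38.p2) and used Cufflinks 2.2.1, per the labels' processing notes, and deposited RPKM values per gene for CDS and 5′ UTR of each library. Whole reads could be recovered from the deposited RPKM (437608 of 437608 values above 0, within 0.001 of a whole number). They were used for depth and for the 5′ UTR coverage filter. The tests ran on log2(RPKM + 0.1), so changes of low genes are understated. RPKM are relative to the reads of each library and show no change in total RNA.

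Samples were grouped by title. limma 3.58.1 (R 4.3.3) was fitted to all 11 lysates with a coefficient per shRNA, moderated with a trend, and p-values were adjusted by Benjamini-Hochberg over all genes (threshold 0.1). TE was tested on the difference of log2 values of each lysate. Medians per lysate were compared by exact permutation (scipy 1.17.1, Python 3.11.15), whose smallest p for 3 against 3 is 0.1, so 0.05 cannot be reached. The fit and summary steps were tested on simulated data. Gene symbols (10505 of 10516), 5′ UTRs and 3′ UTRs came from the GRCm38 annotation, and promoters from RefSeq.

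The comparison, gene lists and tests were chosen with earlier results of these data known. Named genes were the 5 largest decreases and increases that passed without overlap at a mean CDS RPKM of at least 1 (the 5 smallest p where fewer passed). To these came the 4 largest per list, the list of uORF genes, the study's reporter controls, Denr, Mcts1 and Eif2d, and the 3 largest differences between hairpins in each direction. Same-numbered lysates deviated together in RPF-seq (residual correlations across genes 0.153, 0.121 and 0.3226) but not throughout in RNA-seq (0.5885, 0.09083 and 0.5709), TE (0.2775, 0.09472 and 0.2049) or relative 5′ UTR translation (0.2855, 0.09863 and 0.4639). Replicate number was therefore taken as a pairing for RPF-seq only. The margin was small, with a lowest correlation of 0.121 against 0.09083 to 0.09863 in the other measures. The RNA-seq values of 0.5885 and 0.5709 were above every RPF-seq value. Footprint counts and p-values are from the fit without the block unless the block is named. In footprints 2769 genes passed without it and 3931 with it. Alternatives were pseudocounts of 0.01 and 1, a filter on low values, centring, no trend, the block, the compared lysates alone, Gfp as control, an interaction model, and each lysate left out. A few genes that met the naming rules are not reported here by name.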

Additional observations from a re-analysis of the deposited data

Results flagged for a closer look

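Denr shRNA1 and Denr shRNA2 cells differed, in a direct test, in 217 genes in RNA and 1019 genes in footprints. In RNA the 3 largest differences in each direction between the hairpins were those of S100b (-1.98), Slurp1 (-1.92) and Klk8 (-1.35), lower with Denr shRNA1, and of Dpt (2.22), Ccl8 (1.71) and Cdh26 (1.47), higher with Denr shRNA1, on the log2 scale. S100b, which encodes a calcium-binding protein, did not pass for Denr shRNA1 against scramble (-0.63, adjusted p = 0.281) and changed by 1.35 with Denr shRNA2. Klk8, which encodes a kallikrein protease, fell by 1.06 with Denr shRNA1 and stood at 0.29 with Denr shRNA2. Cdh26, which encodes a cadherin, rose by 0.96 with Denr shRNA1 (28.4, 22.7 and 22 RPKM against 14.8, 12.8 and 10.1 RPKM) and stood at -0.51 with Denr shRNA2. The cause of these differences was not tested.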

How the results depend on the processing

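With the compared lysates alone, 338 genes passed in RNA, 0 in TE and 93 in RNA between the hairpins. With Gfp as control, 107 passed in RNA, 528 in footprints and 2 in TE, and the predicted uORF difference in TE was -0.051. In TE, 7 genes passed with an interaction term over the 22 libraries and 2 with a pseudocount of 1. In relative 5′ UTR translation, 1 passed with an RPKM filter on 5′ UTRs, 3 without a trend and 3 with a pseudocount of 1. With 1 lysate left out, the ranges were 430 to 1397 in RNA (707 and 618 without Denr shRNA1 lysate 1 and 2, 674, 430 and 593 without scramble lysate 1, 2 and 3), 1595 (without Denr shRNA1 lysate 2) to 2699 in footprints, 0 to 0 in TE, 0 to 49 in relative 5′ UTR translation (49 and 11 without scramble lysate 1 and 2), and between the hairpins 61 to 245 in RNA (88 without Denr shRNA1 lysate 2, 68 and 61 without Denr shRNA2 lysate 2 and 3) and 560 to 680 in footprints (675, 647 and 674 without Denr shRNA1 lysate 1, 2 and 3, 579 and 560 without Denr shRNA2 lysate 2 and 3). With the replicate block, 2602 genes passed in RNA, 3931 in footprints, 1251 in relative 5′ UTR translation (1239 higher, 12 lower), and 965 in RNA and 1812 in footprints between the hairpins. With Gfp as control these named values changed sign: Abce1 0.01, Odc1 0.02, Dbp -0.05, Ifit3b -0.11, Mylk -0.14, Prkra -0.05, Col3a1 -0.05, Pdgfrb -0.12, Fn1 -0.15 and Rps13 0.06 in footprints, and Col3a1 -0.02, Pdgfrb -0.01 and Krt14 0.19 in RNA. The cause was not tested. The result on an AUG followed directly by a stop, added after seeing the data, ranged from -0.092 to -0.053 with 1 lysate left out. Low counts limit genes such as Prl2c5, Cxcl1 and Samd10.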
